A study of Mus musculus with 2 samples.

Results

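The 10 genes described here encode the class I major histocompatibility complex (MHC) and the machinery that supplies it with peptides. They are the heavy chains H2-K1 and H2-D1, the light chain B2m, the peptide transporter subunits Tap1 and Tap2, the loading factor Tapbp, the inducible proteasome subunits Psmb8, Psmb9 and Psmb10, and the class I transactivator Nlrc5. They were taken by gene symbol, and all 10 were among the 21829 genes with a value. C2C12 is an immortalised line of mouse myoblasts, and the series compared unedited cells (WT) with a Gne knockout (KO) made from the same line by CRISPR–Cas9, in which an indel in exon 2 leads to an early stop codon. Gne encodes the enzyme that starts sialic acid synthesis. Both lines were grown in medium with fetal bovine serum and gentamicin, and the labels name no treatment. The knockout cells were isolated as single clones, and each line is represented by 1 RNA sequencing library, so a difference between the libraries cannot be separated from a difference between that clone and the parental culture.

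The deposited values, which name no unit, were read as FPKM (fragments scaled to transcript length and library size), so that levels of different genes can be compared per length. Steps between the lowest values put the worth of 1 fragment on a 1 kb transcript at about 0.0357 FPKM in WT and 0.0372 FPKM in KO cells. If the unit is FPKM, this puts the depth at about 28000000 and 26900000 fragments. Differences are given as log2((KO + 1)/(WT + 1)), which understates the change of low genes, and a gene was called when this passed 1 in either direction (2-fold) and its mean was at least 1 FPKM. With 1 library per line there is no replicate check of any difference, no error and no test. Gne itself was at 6.67 FPKM in WT and 7.34 FPKM in KO cells. Its RNA level therefore does not show which library carries the edit.

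Nearly all cells display short peptides of their own proteins on class I molecules, where CD8 T cells inspect them. Peptides are cut by the proteasome, carried into the endoplasmic reticulum by the Tap1–Tap2 transporter and loaded onto heavy chains paired with beta-2 microglobulin, the product of B2m. Interferon gamma raises most of these genes through Irf1 and Nlrc5, and skeletal muscle cells are known for low class I at rest.

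Class I genes are known to be controlled together through short promoter motifs, some of which several members held. RefSeq promoter sequences (GRCm38.p6) were found for 8 of the 10 genes, and the 250 bases before the start site were searched on both strands. Shown are the classical heavy chains, B2m and the stretch between the divergent start sites of Tap1 and Psmb9, each 5′ to 3′, because motifs were shared among these members. Capitals mark the kappa B core GGGATTCCC, the interferon-stimulated response element (ISRE) core GAAANNGAAA, the core of the CRE-like X2 box TGACG and the Y box ATTGG, or their complements, and no marked motifs overlap.
H2-K1 (chr17:34000351-34000465, minus strand): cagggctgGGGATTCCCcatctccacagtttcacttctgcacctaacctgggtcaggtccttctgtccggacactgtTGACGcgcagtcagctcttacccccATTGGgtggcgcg
H2-D1 (chr17:35262916-35263053, plus strand): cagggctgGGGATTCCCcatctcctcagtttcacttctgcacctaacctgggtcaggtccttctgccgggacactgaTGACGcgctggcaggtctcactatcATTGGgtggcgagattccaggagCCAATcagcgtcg
B2m (chr2:122147540-122147646, plus strand): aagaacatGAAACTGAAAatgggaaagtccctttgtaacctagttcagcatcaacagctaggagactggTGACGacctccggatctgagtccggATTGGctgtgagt
Tap1 and Psmb9 (chr17:34187331-34187555, plus strand, which is the strand of Tap1): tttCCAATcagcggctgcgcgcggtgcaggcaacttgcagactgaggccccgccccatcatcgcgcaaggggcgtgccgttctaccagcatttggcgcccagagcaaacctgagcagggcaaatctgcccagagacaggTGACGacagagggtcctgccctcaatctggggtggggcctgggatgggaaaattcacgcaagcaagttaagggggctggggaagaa

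The H2-K1 and H2-D1 stretches hold the same order of kappa B core, TGACG and ATTGG, and their 250-base promoters were identical at 167 of 190 aligned bases. A second RefSeq entry of H2-K1, with its start site at 34000333, is not printed. It also holds CCAAT after ATTGG, as H2-D1 does, at -6 to -2 from that start site. The kappa B core occurs in 0.301% of all 32851 promoters of this length. Its letters were chosen after these sequences had been read, because the form set first, GGGANTTCCC, occurred in 0.32% of promoters and in none of the members. The ISRE core, searched only with the letters GAAANNGAAA, was found in B2m and in 2.98% of promoters, TGACG in 17.8% and ATTGG in 33.8%. Looser forms of the ISRE were not searched, so its absence from the other members is not shown. A further motif, the GAS element TTCNNNGAA, was found in Psmb8 and in 7.02% of promoters. Psmb8 held none of the other motifs, Tapbp held ATTGG alone, and Psmb10 held no motif of those searched in this window. The start sites of Tap1 and Psmb9 are separated by the 225 printed bases, so 1 stretch lies upstream of both genes.

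Heavy chains and the light chain were expressed in both libraries at levels that differed by less than 2-fold (plot of the members' levels). H2-K1, at chr17:34214987-34219321 in GRCm39, had 35.1 FPKM in WT and 26.2 FPKM in KO cells, a log2 fold change of -0.41. H2-D1, at chr17:35481691-35486475, had 33.6 and 30.4 FPKM, a log2 fold change of -0.14. Both classical heavy chains were thus lower in the KO library, neither by 2-fold. Of all tested genes, 25.7% differed by more than H2-K1 and 65.7% by more than H2-D1. B2m, on chromosome 2 at 121977957 to 121983594, had 330.6 FPKM in WT and 379 FPKM in KO cells, a log2 fold change of 0.20. It was the highest of the 10 genes, above 98.8% of all genes in the WT library and 99.02% in the KO library. The level of B2m was 4.81 times the sum of H2-K1 and H2-D1 in the WT library and 6.70 times in the KO library. Because these are bulk samples, fewer cells with a transcript and less of it per cell cannot be told apart.

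**Figure D1:**
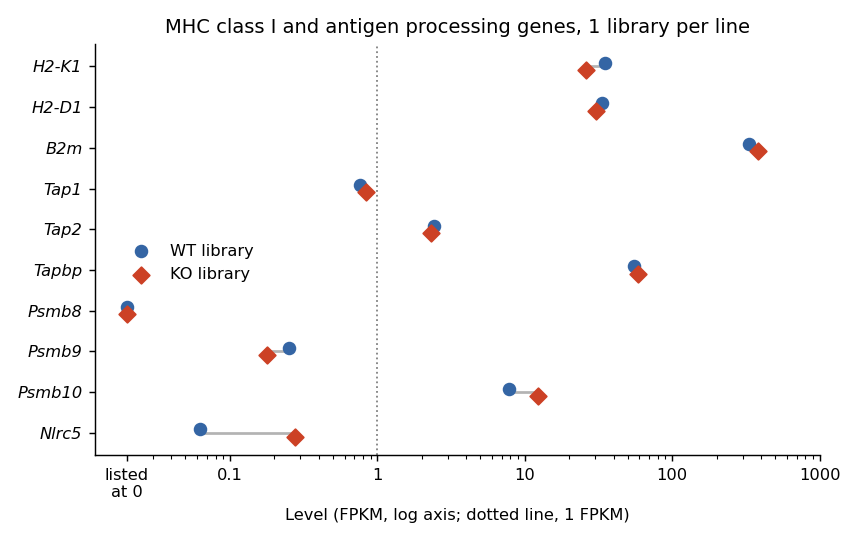
Level of each of the 10 genes in FPKM on a log axis, with circles for the WT library and diamonds for the KO library (1 library each, so no error bars). B2m is highest in both, at 330.6 and 379 FPKM, 6 genes lie above 1 FPKM, Psmb8 is listed at 0 in both and the widest gap is that of Nlrc5, at 0.063 and 0.278 FPKM.

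H2-K1 and H2-D1 share sequence with each other and with other heavy chains, which limits how well reads can be divided among them. Of all 75-base windows of the longest coding transcript of H2-K1 in GENCODE vM39, 1.51% also occurred in a transcript of another gene, and 6.83% of those of H2-D1. The labels and the methods differ on read length, and with 100-base windows the shares were 0% and 4.59%. The windows of B2m, Tap1, Tap2, Psmb8, Psmb9, Psmb10 and Nlrc5 held none. C2C12 cells derive from C3H mice, whereas the mouse reference is C57BL/6J, and classical class I genes differ between these strains. Both libraries share this limit.

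The transporter and its loading factor stood at very different levels, and each was close to the same in both lines. Tap1, which pairs with Tap2 to pump peptides, had 0.767 FPKM in WT and 0.841 FPKM in KO cells and did not pass the filter. Tap2 had 2.44 FPKM in WT and 2.30 FPKM in KO cells, a log2 fold change of -0.06. The Tap2 level was 3.17 times that of Tap1 in the WT library and 2.73 times in the KO library. Tapbp, which encodes tapasin and bridges the transporter to empty heavy chains, had 55.005 FPKM and 58.3 FPKM, a log2 fold change of 0.08. It lay above both transporter genes in both libraries, at 22.6 times Tap2 in the WT library and 25.4 times in the KO library. All 3 genes lie on chromosome 17, Tapbp 75.6 kb, Tap1 193.9 kb and Tap2 212.01 kb from H2-K1 in GRCm39.

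The inducible proteasome subunits replace constitutive catalytic subunits to form the immunoproteasome, which favours peptides suited to class I. Psmb8, the replacement for Psmb5, was listed at 0 in both libraries. Psmb9, the replacement for Psmb6, had 0.252 FPKM in WT and 0.178 FPKM in KO cells, an estimated 7.07 and 4.79 fragments per kb. Psmb10, the replacement for Psmb7, had 7.88 FPKM in WT and 12.3 FPKM in KO cells, a log2 fold change of 0.58. This was the largest difference among the members past the filter, although 15.3% of all tested genes differed by more. Psmb10 lies on chromosome 8, where the log2 fold changes of the 75 other tested genes within 5 Mb centred on 0.23 (median).

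The constitutive counterparts were abundant in both libraries and differed little (plot of the subunit pairs). Psmb5 had 188 FPKM in WT and 172.9 FPKM in KO cells. Psmb6 had 263 and 255 FPKM, and Psmb7 had 153 and 142 FPKM. Psmb9 therefore stood at 0.0957% of the level of Psmb6 in the WT library and 0.0697% in the KO library. Psmb10 stood at 5.14% of the level of Psmb7 in the WT library and 8.66% in the KO library. Of the 3 inducible subunits, Psmb10 alone was past the filter in these libraries.

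**Figure D2:**
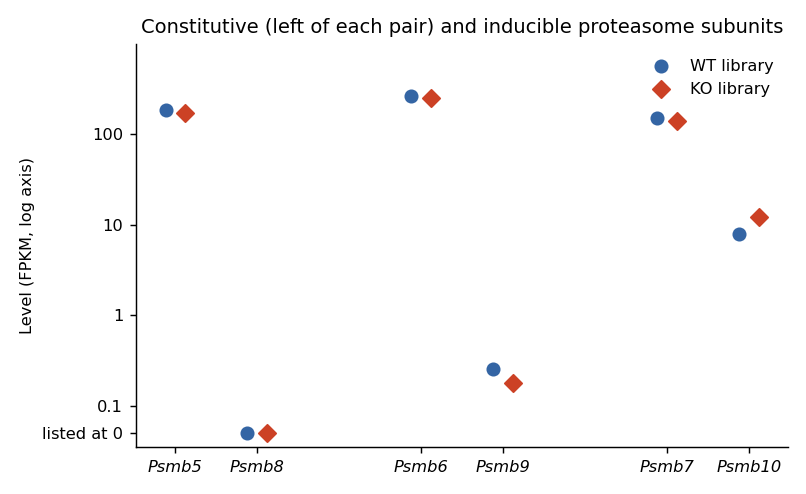
Levels in FPKM (log axis) of the constitutive subunits Psmb5, Psmb6 and Psmb7 and, to the right of each, its inducible replacement, with circles for the WT and diamonds for the KO library. The constitutive subunits lie between 142 and 263 FPKM, Psmb10 at 7.88 and 12.3 FPKM, Psmb9 below 1 FPKM and Psmb8 at 0.

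Nlrc5, which drives transcription of class I genes from the X and Y box motifs shown for H2-K1 and H2-D1, was near the lower end of what these libraries can register. It had 0.063 FPKM in WT and 0.278 FPKM in KO cells, an estimated 1.77 and 7.47 fragments per kb. The longest coding transcript of Nlrc5 has 7578 bases, so the fragments over its whole length would be more than these figures. The log2 fold change was 0.27 with the pseudocount of 1, and the ratio of the values was 4.41. With a pseudocount of 0.1 the log2 fold change was 1.21. Nlrc5 lies on chromosome 8 of GRCm39 from 95160984 to 95253900. Of the 42 tested genes within 5 Mb, 38 had a lower value in the KO library and 20 were more than 2-fold lower, with a median of -0.97. The value of Nlrc5 was higher in the KO library while most of its neighbours were lower.

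Of the 10 members, 6 passed the filter, and 0 were called in either direction. Among all 10542 tested genes, 2.84% were higher by over 2-fold in the KO library and 3.43% were lower by over 2-fold. The median log2 fold change of the 6 was 0.01, beside 0.01 for all tested genes, and the members ranged from -0.41 for H2-K1 to 0.58 for Psmb10. Of the 6, 3 were higher and 3 lower. With a pseudocount of 0.1 and no filter, an alternative chosen after the values were seen, 1 of the 10 passed 2-fold, Nlrc5. The background share of higher genes was then 5.94% of the 14473 genes above 0 in either library.

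**Figure D3:**
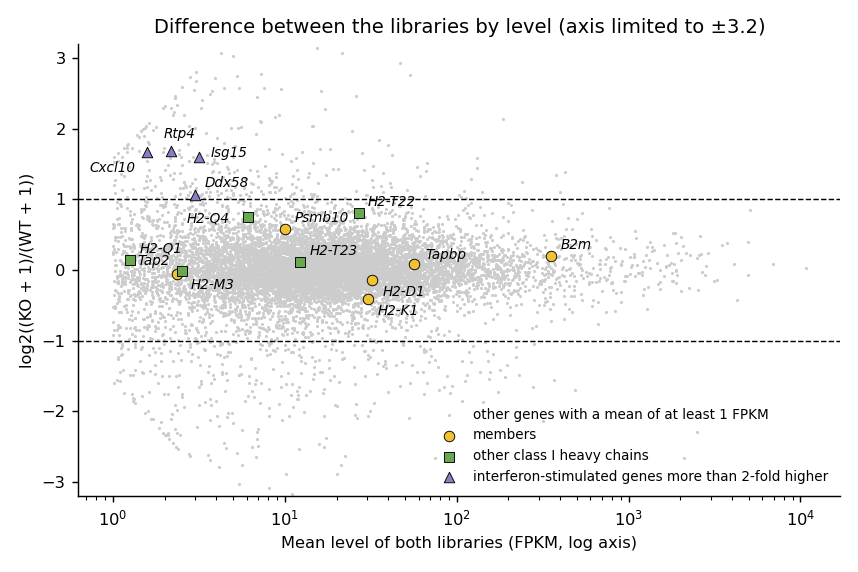
Log2 fold change of the KO against the WT library (y axis) by mean level in FPKM (log x axis) for tested genes, with dashed lines at 2-fold and 42 genes beyond the y axis not drawn. All 6 tested members (circles) and the 5 tested other heavy chains (squares) lie between the dashed lines, whereas 4 interferon-stimulated genes of low level (triangles) lie above them.

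The other heavy chain genes of the H2-Q, H2-T and H2-M families encode mostly nonclassical class I molecules, several of which are seen by natural killer and innate-like T cells. Of 22 on the list 16 had a value, and 5 of them passed the filter. None was called, 4 were higher and 1 was lower, and their median log2 fold change was 0.15. H2-T22, which encodes a ligand of gamma delta T cells, had 19.4 FPKM in WT and 34.7 FPKM in KO cells, a log2 fold change of 0.81. H2-Q4 had 4.34 and 7.96 FPKM, a log2 fold change of 0.75. These values lay inside the 2-fold limit, and 9.26% of tested genes differed by more than H2-T22. H2-T23, which encodes the ligand of inhibitory receptors on natural killer cells, had 11.8 and 12.8 FPKM. H2-M3, which presents formylated peptides, had 2.53 and 2.49 FPKM, and H2-Q1 had 1.15 and 1.38 FPKM.

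Added over all 18 heavy chain genes with a value, a sum formed after the values were seen, the level was 109 FPKM in WT and 116 FPKM in KO cells, a log2 fold change of 0.10. H2-K1 and H2-D1 made up 63.3% of this sum in the WT library and 48.7% in the KO library. H2-T22 made up 17.9% and 29.8%. Together the classical chains went from 68.8 to 56.6 FPKM and the 16 others from 39.9 to 59.8 FPKM. Among the 75-base windows of H2-T22, 19.5% occurred in another gene and 16% in H2-T10, a gene with no value of its own. Among its 100-base windows these shares were 9.45% and 6.92%. For H2-Q4 the share was 8.46% at 75 bases and 2.82% at 100 bases. Per heavy chain sum, B2m stood at 3.04 in the WT library and 3.26 in the KO library.

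Most of these genes lie together on chromosome 17 (plot of the H2 region). The tested genes within 5 Mb of H2-K1, H2-D1 and H2-T22 centred on -0.01, -0.02 and -0.03 (median log2 fold change). With these medians taken off, H2-K1 was at -0.40, H2-D1 at -0.12 and H2-T22 at 0.84. Within 4 Mb of H2-K1, 1 of 107 tested genes passed 2-fold. B2m, on chromosome 2, was at 0.31 after subtraction of its neighbours' median of -0.11.

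**Figure D4:**
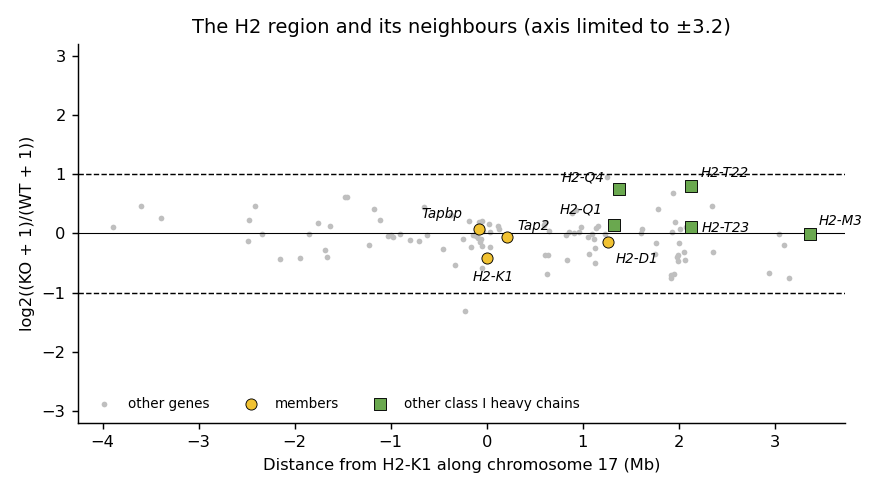
Log2 fold change of tested genes (y axis) by distance from H2-K1 along chromosome 17 in Mb (x axis), with members as circles, other class I heavy chains as squares and dashed lines at 2-fold. The members scatter around 0 with their neighbours, while H2-Q4 and H2-T22 reach 0.75 and 0.81.

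Class I-like heavy chains encoded outside the H2 complex, most of which also pair with beta-2 microglobulin, included the called gene nearest in kind to the members. Mr1, which shows vitamin B metabolites to mucosal-associated invariant T cells, had 2.96 FPKM in WT and 8.81 FPKM in KO cells, a log2 fold change of 1.31. It was the 1 called gene of the 3 that passed the filter, out of 6 with a value. The neighbours of Mr1 on chromosome 1 had a median of 0.23, and 1.07 remained after its subtraction. Fcgrt, the neonatal Fc receptor, had 21.9 and 17.98 FPKM, and Procr, the endothelial protein C receptor, had 3.48 and 2.45 FPKM. The median of the 3 was -0.27, opposite in sign to Mr1.

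Loading in the endoplasmic reticulum also needs chaperones and trimming enzymes that serve many other proteins. The list for this step held 9 genes, among them Sec61a1, Sec61b and Sppl3, which are neither chaperones nor trimming enzymes. All 9 passed the filter and 0 were called, with a median log2 fold change of 0.12, the value of Sec61a1. Calr, the lectin chaperone calreticulin that holds heavy chains in the loading complex, had 837 FPKM in WT and 492 FPKM in KO cells, a log2 fold change of -0.77. It lies on chromosome 8, where its 64 tested neighbours had a median of -1.47. The part of these neighbours in the value of Calr was not tested. Pdia3, the thiol oxidoreductase that partners tapasin, had 235 and 299.8 FPKM. Erap1, which trims peptides inside the reticulum, had 5.13 and 6.76 FPKM, and Tapbpl, a tapasin-related editor, had 5.70 and 4.09 FPKM. Among 8 constitutive proteasome subunits, assembly factors and activators, 0 were called and the median was -0.08. They ranged from -0.17 for Psme3 to 0.25 for Psme1, with Psme4 at 0.21 and the assembly factor Pomp at -0.13. Psme1 encodes part of the activator that interferon gamma raises, and it had 31.7 and 37.9 FPKM.

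**Figure D5:**
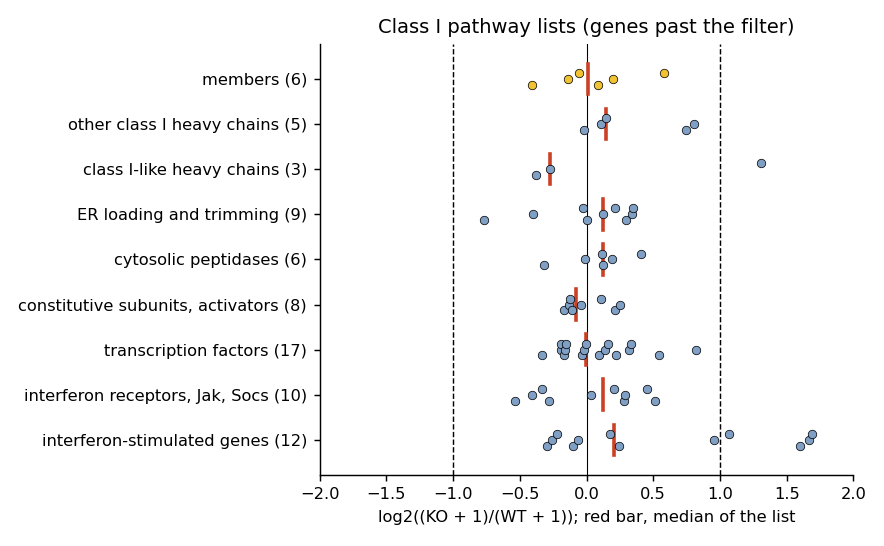
Log2 fold change of the tested genes of each list (points, number of genes in brackets) with the list's median as a red bar and dashed lines at 2-fold. The members and most lists stay between the dashed lines, with Mr1 and 4 interferon-stimulated genes to the right of them.

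Of 20 transcription factors that act on class I promoters, 2 were listed at 0 in both libraries. Of the 17 past the filter 0 were called, with a median of -0.003. Stat2, which carries the type I interferon signal to the nucleus, had 3.25 FPKM in WT and 5.21 FPKM in KO cells, a log2 fold change of 0.55. Irf1, which binds the ISRE, had 12.2 and 11.98 FPKM, and Rfx5, the X box factor that recruits Nlrc5, had 4.68 and 4.66 FPKM. At the lower end were Irf3, at 18.8 and 14.7 FPKM, and Nfkb1, at 40.6 and 35.3 FPKM. The 2 listed at 0 in both were Irf8 and Ciita, the class II transactivator related to Nlrc5.

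Among 10 genes of interferon receptors and their proximal signalling 0 were called, with a median of 0.12. The subunits of the interferon gamma receptor were higher in the KO library, with log2 fold changes of 0.51 for Ifngr1, from 14.2 to 20.7 FPKM, and 0.46 for Ifngr2, from 11.6 to 16.3 FPKM. Those of the type I receptor were lower, at -0.41 for Ifnar1, from 20.4 to 15.1 FPKM, and -0.54 for Ifnar2, from 16.99 to 11.4 FPKM. Ifnar1, Ifnar2 and Ifngr2 are neighbours on chromosome 16, where the tested genes within 5 Mb of Ifnar1 had a median of -0.33. After subtraction of this median Ifnar1 was at -0.08 and Ifnar2 at -0.20, and Ifngr2, less -0.34, at 0.79. All 9 interferon genes on the list were listed at 0 in both libraries.

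Interferon-stimulated genes other than the members share these inputs and held 4 called genes. Of 39 with a value 12 passed the filter, and 4 were more than 2-fold higher and 0 lower. Rtp4 went from 0.501 to 3.83 FPKM and Cxcl10, a chemokine, from 0.239 to 2.93 FPKM. Isg15, a ubiquitin-like modifier, went from 1.08 to 5.30 FPKM, and Ddx58, the viral RNA sensor RIG-I, from 1.60 to 4.44 FPKM. Rtp4 and Cxcl10 were below 1 FPKM in WT cells and passed the filter only through their KO values, so their being called follows in part from the filter. Isg15, Ddx58 and Irgm1 are named after their values were seen. The 4 called genes are the 4 tested genes of the list with a mean of 1 to 5 FPKM, a range in which 7.82% of all tested genes were more than 2-fold higher, and 0 of the 8 at higher levels were called. Among the latter, Irgm1 had 11.7 FPKM in WT and 23.6 FPKM in KO cells, a ratio of 2.015. Its log2 fold change with the pseudocount of 1 was 0.95, just under the limit. Ifi35 had 14.4 and 11.5 FPKM and Trim25 had 7.02 and 5.70 FPKM. Of all 12 tested genes of the list, 7 were higher and 5 lower in the KO library. Of the 27 genes below the filter 19 were higher, 3 lower and 5 at 0 in both. The matching shares of all genes below the filter were not taken, so this count has no background beside it.

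Most markers of the blood and vessel cells that often carry high class I levels were at or near 0. Of 14 blood and immune cell markers, 9 were listed at 0 in both libraries, including the pan-leukocyte gene Ptprc and the macrophage gene Adgre1. Their summed level was 22.7 FPKM in WT and 20.03 FPKM in KO cells, most of it Cd14, at 19.6 and 18.4 FPKM. The 7 endothelial markers summed to 0.019 and 0.08 FPKM. Of 11 genes of class II presentation, which professional antigen-presenting cells use, 8 were listed at 0 in both, and H2-DMa, at 1.76 and 1.90 FPKM, alone passed the filter. Myoblast markers differed between the libraries. Their sum was 294 FPKM in WT and 118 FPKM in KO cells, and 4 of the 8 past the filter were more than 2-fold lower and 1, Myf5, higher. Myod1, the defining regulator of myoblasts, had 59.97 FPKM in the WT library and was listed at 0 in the KO library. The sum of 7 fibroblast and mesenchymal markers was 274 FPKM in WT and 514 FPKM in KO cells. Col1a1, a collagen gene that went from 9.66 to 273 FPKM, rose by more than the sum did, whereas Ly6a had 198 and 146 FPKM, Pdgfrb had 54.5 and 80.2 FPKM, and Lum and Thy1 were listed at 0 in both. The part of these differences in the class I values was not tested.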

How the data were processed

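Polyadenylated RNA of 1 WT and 1 Gne KO library of C2C12 cells was sequenced. The values the authors deposited, listed by gene symbol, name no unit and were read as FPKM, because the column sums differ (568543 and 574253) and low values step with transcript length. The submitters' processing notes name Trim Galore 0.6.6, STAR 2.7.9a and RSEM 1.3.3. The methods give the same tools for trimming, alignment and quantification, with another version of STAR. The notes name GRCm38 and GRCh38 and the labels paired reads of 75 bases on an Illumina instrument, and the methods name GRCm39 and paired reads of 100 bases on an MGI instrument. How RSEM output became this table is not given in the sources used here.

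Of 24 repeated symbols, none of them a member, that with the larger mean over both libraries entered. No count model, test or p-value was used because each line has 1 library. The worth of 1 fragment is the most frequent product of value and length among low genes with a single transcript of at least 2 kb (101 values in WT, 108 in KO). Positions, neighbours within 5 Mb and window sharing came from GENCODE vM39 on GRCm39, promoters from RefSeq on GRCm38.p6. All members, the 2 largest rises and the 2 largest falls of each list of presentation, regulation and interferon genes, Psmb5, Psmb6, Psmb7, Irf1 and Rfx5 were named by rule, except for 1 item not reported here, and of the marker lists only the genes given. Members and lists were chosen with earlier results of these data known. Calling and the worth of 1 fragment were tested on simulated data, with large changes planted in genes of at least 5 FPKM. The simulation held counting noise only, and smaller changes, changes of lower genes and the other steps were not tested. Python 3.11.15, numpy 2.4.6, pandas 2.3.3 and matplotlib 3.10.9 were used. Alternatives were other pseudocounts, filters, scaling, summed repeats and subtraction of the neighbours' median.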

Additional observations from a re-analysis of the deposited data

How the results depend on the processing

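No paired analysis was possible because each line has a single library and no test was run, and for the same reason no library could be left out. A log2 fold change or median was taken as moved when it shifted by more than 0.44, the interquartile range of all tested genes, and a count or ratio when it shifted by more than 1.5 times. The members' values stayed within this range in 48 of 50 alternatives, and both exceptions were Nlrc5, at 1.21 with a pseudocount of 0.1 and at 1.24 after subtraction of the neighbours' median. Summed repeats could not change any member, and scaling could change them only slightly. The limit of 0.44 is also wider than the log2 fold change of every member but Psmb10. The count of unmoved values is therefore weak evidence of stability. The count of 0 members higher became 1 with a pseudocount of 0.1 and no filter, an alternative added once the values were known, and the other alternatives left it at 0. Among genes of at least 5 FPKM on average, the median was 0.75 for the other heavy chains and 0.52 for the class I-like chains, where fewer genes were tested, and -0.08 for the interferon-stimulated genes, against 0.21. The class I-like median was 0.04 without a filter. Over all tested genes, a pseudocount of 5 left 102 of 299 higher and 176 of 362 lower, and the stricter filter of 5 FPKM left 145 and 221. Scaling divided the KO values by 1.004. With a pseudocount of 1 on both levels, Psmb8 stood at 0.529% of Psmb5 in the WT library and 0.575% in the KO library, and Psmb9 at 0.474% and 0.459% of Psmb6, values set by the pseudocount. The number of fragments is an estimate, so no counting interval is given.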

Other observations

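Further genes next to the class I pathway were also measured, and the cytosolic peptidases among them are drawn with the other lists. Of 6 cytosolic peptidases that cut proteasome products, 6 passed the filter and 0 were more than 2-fold changed, with a median log2 fold change of 0.12. Thop1, an oligopeptidase that destroys many class I peptides, had 32.03 FPKM in WT and 42.9 FPKM in KO cells, a log2 fold change of 0.41, and the tested genes within 5 Mb of it on chromosome 10 had a median of 0.39. Npepps had 41.8 and 47.96 FPKM, Blmh had 26.1 and 20.7 FPKM, and Lap3 had 51.3 and 50.9 FPKM. Of 5 genes with a value that were listed for control of class I at the cell surface, Sppl2a among them, 4 passed the filter. None was more than 2-fold changed. All 4 were higher in the KO library, with a median of 0.24, and the largest values were those of Susd6, at 19.5 and 27.4 FPKM, and the ubiquitin ligase gene March9, at 7.70 and 9.39 FPKM.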
